A study of Mus musculus with 9 samples.

Results

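Open chromatin of brain endothelial cells (ECs) was compared between old mice lacking endothelial KLF4 and old WT Cre controls. The libraries were chosen by their titles, and 4 of the 9 libraries of the series were used, namely 2 of old EC-K4KO mice and 2 of old CdH5 CRE mice, called WT Cre here. EC-K4KO mice carry floxed Klf4 and a tamoxifen-inducible Cre driven by the VE-cadherin (Cdh5) promoter, and WT Cre mice carry the same Cre without the floxed gene. According to the methods of the study, both genotypes received tamoxifen and included male and female mice. The labels give the age of all 4 libraries only as old and do not say whether the replicates came from separate animals, so that a p-value here measures the spread between libraries. Live ECs were sorted and their nuclei treated with Tn5 transposase, which cuts accessible DNA (Omni-ATAC-seq), and peaks mark the regions cut most often. In such bulk profiles, fewer cells with an open region and less opening per cell cannot be told apart.

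KLF4 is a zinc-finger transcription factor that binds CACCC-type and GC-rich DNA. In the endothelium it is induced by blood flow together with the related KLF2 and is known for restraining inflammatory adhesion molecules and clotting. Brain ECs form the blood-brain barrier through tight junctions, selective transporters and low transcytosis.

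The data are peak lists, each called on a single library, so that read depth is unknown and the values are the presence, rank and fold of peaks. The fold is the signal of a peak over the local background of the same library. The lists held 45026 and 39079 peaks in old EC-K4KO and 43893 and 32555 in old WT Cre. To compare lists of unequal length, the 32555 strongest peaks of each by −log10 p were also used, which is the length of the shortest list. At this equal length the median fold was 5.90 and 6.02 in EC-K4KO against 4.23 and 4.72 in WT Cre, so that the libraries of the genotypes stood apart in enrichment as well as in genotype. WT Cre replicate 1 held the largest share of intergenic peaks in its whole list, at 41.01% against 32.3% to 34.2% in the other libraries.

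Peaks of known EC genes were present in every library. Of 28 endothelial markers, 22 had a promoter peak in all 4 lists. Microglial markers had no promoter peak in any list. Pericyte and mural markers had promoter peaks for 8 and 5 of 16 genes in EC-K4KO and for 0 and 4 in WT Cre. Astrocyte markers had them for 5 and 4 of 16 genes against 3 and 5. Oligodendrocyte markers had them for 4 and 2 of 17 against 2 and 2, and neuronal markers for 3 and 3 of 22 against 1 and 1. Fibroblast and choroid markers had them for 4 of 16 genes in every list. The part of these cells in the results below was not tested.

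Klf4 itself (chr4:55527143-55532466, minus strand, GRCm38/mm10) kept its promoter peak. The fold there was 6.89 and 6.78 in EC-K4KO and 4.51 and 5.38 in WT Cre, and after quantile normalisation the log2 difference was 0.09 (limma, unadjusted p = 0.45). A peak list does not measure whether the floxed exons were cut out. A peak within a Klf4 exon was called only in WT Cre replicate 1, with a fold of 2.12. The lists had 25 and 21 peaks nearest to Klf4 in EC-K4KO and 19 and 14 in WT Cre. Of the regions nearest to Klf4, 5 had a peak in both EC-K4KO and neither WT Cre library, at 54362, −9152, −389008, −473127 and −538423 bp from the transcription start site (TSS). The shared region at −157221 bp had folds of 9.58 and 7.34 in EC-K4KO and 3.67 and 4.51 in WT Cre. Other shared regions differed less and in either direction after normalisation, such as those at −200927 bp (log2 difference 0.47), −72601 bp (0.03), −90701 bp (−0.21) and −129674 bp (−0.25).

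**Figure D1:**
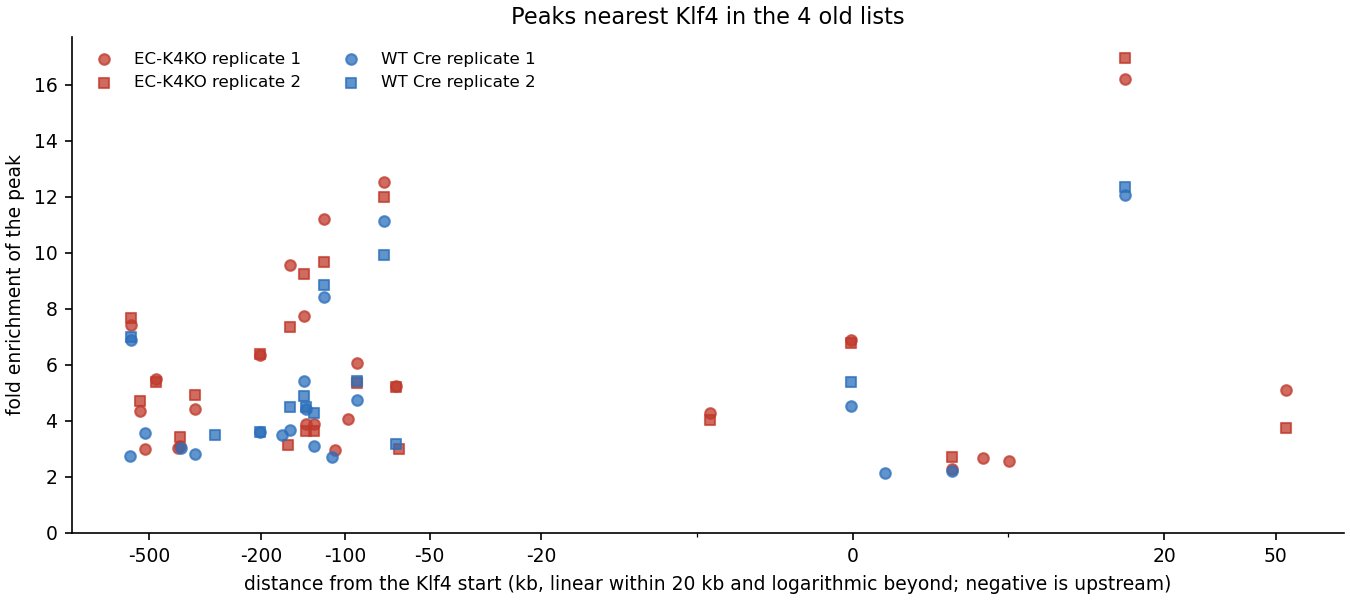
Fold over local background (vertical axis) of each peak nearest to Klf4 in the 4 old libraries, against its distance from the Klf4 TSS (horizontal axis, kb, linear within 20 kb and logarithmic beyond). Colours mark the genotype and symbols the replicate. All 4 libraries have a peak at the TSS, and at −157221 bp both EC-K4KO points (9.58 and 7.34) lie above both WT Cre points (3.67 and 4.51).

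At equal length, the lists of the old EC-K4KO libraries held wider peaks. At equal length the median width was 494 and 490 bp in EC-K4KO and 422 and 431 bp in WT Cre (492 ± 2.83 against 426.5 ± 6.36, mean ± SD, n = 2 each). In whole lists the difference was 31.5 bp and the genotypes overlapped (exact permutation p = 0.667), and with peaks of a −log10 q of at least 2 it was 2.75 bp (exact permutation p = 0.667). The covered length at equal length was 18.1 ± 0.0307 Mb in EC-K4KO and 16.1 ± 0.193 Mb in WT Cre. Intronic peaks made up 36.0 ± 0.293% in EC-K4KO and 34.2 ± 0.382% in WT Cre, while intergenic peaks made up 30.8 ± 0.211% and 33.1 ± 1.04%. The share on chromosome X was 2.26 ± 0.0130% and 1.96 ± 0.0152%. The genotypes did not overlap in these 5 measures, with a two-sided exact permutation p of 0.333 in each, the smallest that 2 against 2 libraries allow. Of 13 measures counted at equal length 10 separated the genotypes, and in whole lists 7 of 15 did. Promoter peaks made up 24.9 ± 0.0282% and 25.04 ± 0.285%, and in these the libraries overlapped. The number of peaks in whole lists also overlapped between genotypes (exact permutation p = 0.667).

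**Figure D2:**
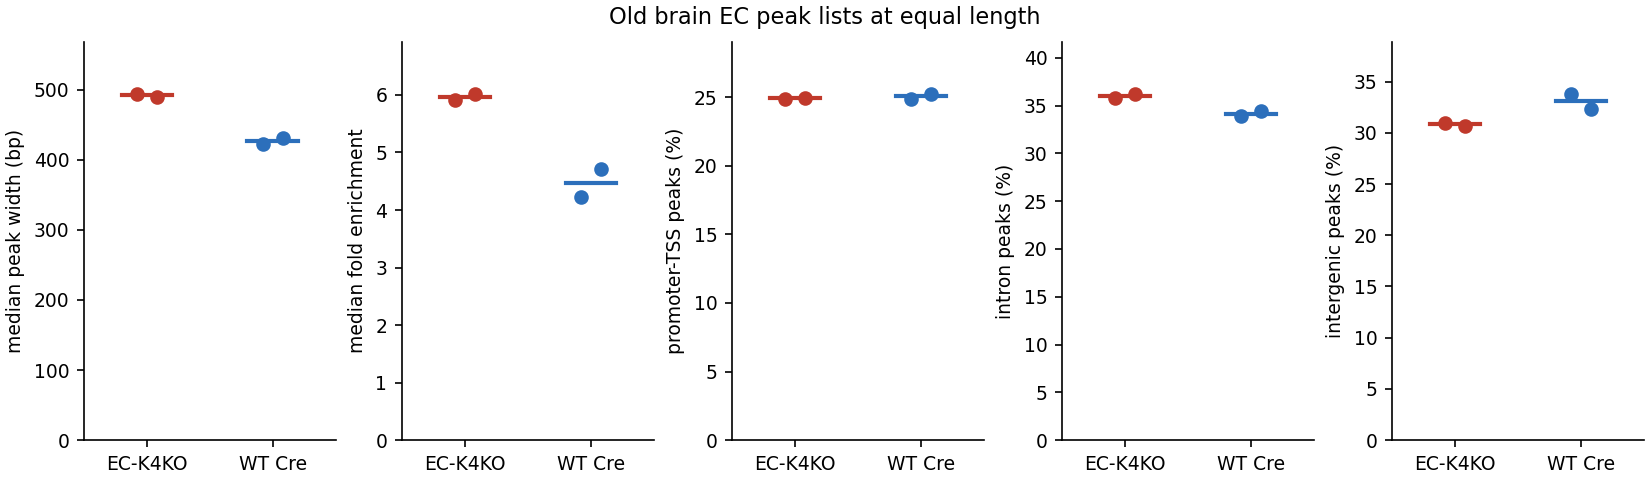
Each panel gives 1 measure of the equal-length peak lists, with a point for each library and a line at the mean of its genotype (n = 2 each). Median peak width is 494 and 490 bp in old EC-K4KO and 422 and 431 bp in old WT Cre, while promoter shares overlap between the genotypes.

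Regions with a peak in both libraries of one genotype and neither of the other were more often those of EC-K4KO in lists of both lengths. At equal length, merged peaks gave 47195 regions, of which 22696 had a peak in all 4 lists. Of the 47195 regions, 2379 (5.04%) had a peak only in EC-K4KO and 653 (1.38%) only in WT Cre. In whole lists the counts were 4408 (6.38%) and 391 (0.566%) of 69107. In a strict set, with no peak of the other genotype anywhere in its whole lists, they were 2191 (4.64%) and 281 (0.595%). At equal length the WT Cre lists overlapped each other less than they overlapped those of EC-K4KO. There the Jaccard index of covered bases was 0.715 for the EC-K4KO pair, 0.566 for the WT Cre pair and 0.593 to 0.601 between genotypes. Among the 10000 strongest peaks the WT Cre pair was at 0.728, above the 0.703 to 0.723 between genotypes. In whole lists the WT Cre pair was at 0.486, within the 0.472 to 0.558 between genotypes. Regions of a single library numbered 2150 and 2231 in EC-K4KO and 5014 and 5420 in WT Cre, and the part of this in the counts of restricted regions was not tested. The direction turned when only the 10000 strongest peaks of each library were used, with 316 EC-K4KO and 371 WT Cre regions. With 1 WT Cre library left out the counts were 4416 against 6078 without replicate 1 and 3986 against 5677 without replicate 2, where a WT Cre region needs a peak in 1 library and an EC-K4KO region still in 2. Regions of the strict sets ranked low in their lists, at a median of 80.4% and 79.1% of the way down for EC-K4KO and 75.8% and 76.6% for WT Cre. Regions in all 4 lists ranked at 35.0%.

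These genotype-restricted regions were mostly distal. Of the EC-K4KO regions at equal length, 48.8% were intronic, 40.7% intergenic and 3.95% at promoters. Of the WT Cre regions, 43.3% were intronic, 41.5% intergenic and 6.74% at promoters. Promoters made up 34.3% of the regions in all 4 lists and 18.7% of all regions. The median distance to a TSS was 24336 bp for EC-K4KO regions and 22412 bp for WT Cre regions, against 6293.5 bp for regions in all 4 lists and 18747 bp for all regions. In whole lists the distances were 26587.5 and 28630 bp, close to the 27341 bp of all regions.

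By class, promoters open in a single genotype at equal length were about as frequent on either side. At equal length 200 genes (2.06% of 9689) had a promoter peak in both EC-K4KO and neither WT Cre library, and 207 (2.14%) had the reverse. In whole lists they were 269 (2.64% of 10193) and 192 (1.88%). By a peak within 1000 bp of a TSS in place of the class, they were 165 and 109, and by both criteria 120 and 68. Cldn1, a tight junction claudin, Gja1, the gap junction protein connexin 43, and Tbx18, a transcription factor of mural cells, were among the EC-K4KO genes both by class and with a peak within 1000 bp of the TSS. The 8 listed genes with a promoter peak only in WT Cre by class included B2m, the light chain of MHC class I, and Sox9. None of the 8 was restricted to WT Cre by a peak within 1000 bp of the TSS.

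Among the strict EC-K4KO regions, those of best rank included the promoters of Mapk3 (the kinase ERK1), Zdhhc18 (a palmitoyltransferase), N4bp1 and Lrp3. The Mapk3 promoter peak (chr7:126759360-126759556) had folds of 5.57 and 4.73, and that of Zdhhc18 (chr4:133633431-133633682) 7.11 and 8.13. Mapk3 was restricted to EC-K4KO by class only, and the other 3 genes by class and by distance. An intronic region of Alad, a heme synthesis enzyme, ranked first, with folds of 4.11 and 4.30. An intergenic region 75132 bp from Nov, a secreted matricellular protein, had folds of 9.87 and 7.33. None of these regions had a peak in either WT Cre list. The promoter of Nov went the other way at equal length. By class and by distance it had a peak in both WT Cre and neither EC-K4KO library.

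The genes with the most EC-K4KO regions in whole lists were Epas1, which encodes the hypoxia factor HIF-2α, and Irf2bp2, with 8 regions each, of 36 and 24 regions in all. Camta1, Mkl2, Tspan5, Utrn and Gm10125 had 6 each. Over all genes such regions made up 6.38%, and a gene with many regions can reach a high count by number alone.

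Among the strict WT Cre regions, 7 lay in 1 cluster of type I interferon genes on chromosome 4 (chr4:88757506-88806158, 48653 bp), which holds Ifnz and its predicted relatives Gm13283, Gm13286, Gm13277, Gm13290 and Gm13275. The whole lists had 2 and 1 peaks in this span in EC-K4KO and 8 and 7 in WT Cre. The span was not uniform. A region at Gm13276 had folds of 6.80 and 5.61 in EC-K4KO, 2.96 in WT Cre replicate 1 and no peak in WT Cre replicate 2. A promoter region of Ifnz had a peak only in EC-K4KO replicate 1, with a fold of 5.18. The region of best rank by −log10 p, near Gm13283 (chr4:88763305-88763734), had folds of 6.59 and 8.22, and the highest folds were those at Gm13277, at 9.25 and 10.1. The sequences of these related genes were not compared, and whether reads were assigned to the wrong copy was not tested. According to the study's methods, reads of low mapping quality were removed. The span lies 33.2 Mb from Klf4 on the same chromosome. Other WT Cre regions lay at −6956 bp from Fosb, an AP-1 subunit, with folds of 3.87 and 3.98, and in an intron of Nfib, a nuclear factor I gene, with folds of 5.62 and 7.37.

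For the 23802 regions with a peak in all 4 whole lists, the fold was fitted with limma after quantile normalisation on the log2 scale. No region passed an adjusted p of 0.05 in either direction (0.0% higher and 0.0% lower, smallest adjusted p = 0.135). At an unadjusted p under 0.05 there were 1971 higher and 1999 lower. In simulated data of this design, a planted 4-fold change was found for 79.0% of regions and a 2-fold change for 0.0%. Without normalisation 4289 regions were higher and 26 lower, with the median of all regions shifted by 0.30. As a description, 546 regions (2.29%) had a log2 fold higher in EC-K4KO by 0.5 or more without overlap of the genotypes, and 380 (1.6%) were lower. The value of 0.5 was chosen after the data were seen. The deposited folds given below are before normalisation, and they were higher in EC-K4KO over most regions.

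Among the regions of higher fold in EC-K4KO was an intronic region of Cflar, an inhibitor of caspase-8 (chr1:58742113-58742822), with folds of 9.50 and 9.24 against 3.89 and 4.11 (log2 difference 0.90 ± 0.12 SE). A region at −39943 bp from the TSS of Nfkb1, a subunit of NF-κB, had folds of 12.5 and 12.8 against 6.21 and 4.76. Regions near the leukocyte adhesion gene Sele (6.87 and 6.90 against 3.26 and 4.12), the metalloproteinase Mmp9 (8.68 and 6.14 against 3.00 and 3.88) and the vasoconstrictor Edn1 (12.8 and 12.7 against 7.29 and 7.75) were also higher. The choice of higher regions required both EC-K4KO libraries to lie above both WT Cre libraries after normalisation. Of 57 shared regions of leukocyte adhesion and NF-κB genes, the list of Sele and Nfkb1, 2 were higher and 3 lower, with a median log2 difference of −0.08.

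The lower region of smallest p was intergenic, 86969 bp from the Zcchc2 TSS, with folds of 3.63 and 3.45 in EC-K4KO and 5.60 and 7.26 in WT Cre (log2 difference −1.13 ± 0.13 SE). An intronic region of Rgs3, a regulator of G-protein signalling, had folds of 4.15 and 3.43 against 5.91 and 6.90. Tight junction genes had regions of either direction, with 3 lower and 2 higher of 60 shared regions. Both higher regions lay near Cgnl1, which encodes paracingulin, with folds of 6.07 and 4.89 against 2.87 and 3.08 and of 8.06 and 8.12 against 3.07 and 3.99. A region at −37151 bp from the TSS of Cldn5, the main claudin of the blood-brain barrier, had folds of 4.46 and 4.73 against 5.27 and 6.66 (−0.72 ± 0.12). An intron of Ocln, which encodes occludin, had folds of 5.14 and 5.26 against 5.20 and 7.35 (−0.61 ± 0.14), where the deposited folds of the genotypes overlap and separate only after normalisation. Lower promoter regions included those of Icam1 (4.18 and 4.93 against 5.22 and 5.25), an adhesion molecule, and Cav1 (3.43 and 3.69 against 3.64 and 4.88), the caveolar coat protein, whose deposited folds overlap as well.

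Genes of the KLF family had both lower and higher regions. Of 78 shared regions near 15 KLF family genes, 9 were lower (11.5%) and 5 higher (6.41%), with a median log2 difference of −0.19, against 1.6% lower, 2.29% higher and a median of −0.01 over all shared regions. Klf2, the flow-induced relative of Klf4, had 2 lower regions, at −15239 bp (4.96 and 7.06 against 7.67 and 8.77) and 17443 bp (3.80 and 6.002 against 6.37 and 6.80). It also had a higher region at −37247 bp (9.52 and 10.5 against 3.42 and 5.69). A region 61383 bp from Klf3 had folds of 4.05 and 3.86 against 5.35 and 7.97 (−1.04 ± 0.15). Klf10 had 2 lower regions. Of the regions of these genes, 16 had a peak in both EC-K4KO and neither WT Cre library and 0 the reverse. The 16 were 14.3% of their regions with a peak in 2 or more lists, against 11.8% over all genes. These lists were chosen with earlier results of the data known.

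In the other gene lists, regions with a peak in both EC-K4KO and neither WT Cre library were read against the same 11.8%. Oxidative and hypoxia genes had 16 such regions (19.0%), of which 8 were those of Epas1, TGF-β and BMP genes 25 (16.6%), tight junction genes 17 (16.5%) and endothelial identity genes 35 (12.1%). Pericyte and mural genes had 7 (30.4%) and astrocyte genes 10 (23.8%), and oligodendrocyte genes had 0. Solute carriers of the barrier had 11 (9.48%).

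The DNA under the regions was read next, since the sequence was not used to choose any of them. The KLF letters CACACCC were searched on both strands in the central 200 bp of distal regions, those outside promoters. The first 3 of the following windows were picked because they hold the letters at regions lower in EC-K4KO near junction and KLF genes. That of Comtd1 holds them at a region with a peak only in WT Cre, and Cflar is a higher region for contrast. The letters lay in 10 of 42 windows of lower regions of listed genes. Of the 12 strict regions of best rank they lay in 3 for WT Cre and 0 for EC-K4KO. All windows shown are the plus strand of GRCm38/mm10, 200 bases around the middle of the region. Capitals mark the KLF letters on either strand (CACACCC or GGGTGTG) and, in Cflar, the AP-1 letters TGANTCA.
Cldn5, chr16:18739316-18739515: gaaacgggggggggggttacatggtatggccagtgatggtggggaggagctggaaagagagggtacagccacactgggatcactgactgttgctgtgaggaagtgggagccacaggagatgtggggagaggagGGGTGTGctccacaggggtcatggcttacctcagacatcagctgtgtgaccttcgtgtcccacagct
Ocln, chr13:100533136-100533335: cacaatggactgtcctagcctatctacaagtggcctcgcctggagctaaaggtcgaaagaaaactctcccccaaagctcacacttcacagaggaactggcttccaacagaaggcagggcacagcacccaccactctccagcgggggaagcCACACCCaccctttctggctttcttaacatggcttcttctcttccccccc
Klf3, chr5:64864888-64865087: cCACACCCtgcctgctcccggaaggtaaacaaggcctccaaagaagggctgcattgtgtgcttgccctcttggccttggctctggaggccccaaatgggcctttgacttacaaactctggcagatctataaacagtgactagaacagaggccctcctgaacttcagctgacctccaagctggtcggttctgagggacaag
Comtd1, chr14:21852586-21852785: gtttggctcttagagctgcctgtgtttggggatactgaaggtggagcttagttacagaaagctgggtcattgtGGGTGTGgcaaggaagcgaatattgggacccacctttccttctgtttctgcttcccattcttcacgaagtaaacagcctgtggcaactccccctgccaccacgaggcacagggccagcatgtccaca
Cflar, chr1:58742368-58742567: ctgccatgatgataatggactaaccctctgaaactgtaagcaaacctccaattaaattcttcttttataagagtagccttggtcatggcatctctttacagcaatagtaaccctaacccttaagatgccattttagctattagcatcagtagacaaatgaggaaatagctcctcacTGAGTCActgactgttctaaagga
The first 3 windows belong to shared regions with lower fold in EC-K4KO, and that of Comtd1 to a region with a peak only in WT Cre (folds of 4.10 and 4.67). Over all distal regions with a peak in all 4 equal-length lists, 6.36% held the KLF letters and 9.85% the AP-1 letters. A match is a description of the sequence and does not show binding.

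KLF letters were less frequent in the middle of the distal peaks of old EC-K4KO mice. The share was 5.52% and 5.56% in EC-K4KO and 6.83% and 6.76% in WT Cre, a difference of −1.25 percentage points (exact permutation p = 0.333, adjusted p = 0.433 over 13 motifs). Over the whole peak, which is wider in EC-K4KO, it was 13.8% and 14.07% against 14.19% and 14.07%, a difference of −0.19. The shorter letters CACCC were at 42.7% and 41.9% against 44.8% and 44.7% in the middle, and the direction turned over the whole peak, at 67.1% and 67.0% against 64.8% and 65.2%. The AP-1 letters went the other way, at 11.4% and 11.2% against 9.74% and 10.1%. The SOX letters ACAAAG were at 20.3% and 20.7% against 19.1% and 18.4%. The CTCF pattern was at 2.00% and 1.87% against 1.49% and 1.38%. In all, 10 of the 13 motifs separated the genotypes, and all of these but KLF were higher in EC-K4KO. The mean GC content did not separate them, at 51.8% and 51.6%.

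Genotype-restricted regions differed more. The KLF letters lay in 73 of 2285 distal EC-K4KO regions (3.19%, exact 95% interval 2.51% to 4.0003%) and in 94 of 609 distal WT Cre regions (15.4%, 12.7% to 18.6%). The intervals cover counting error only. In the strict sets the shares were 3.19% and 18.3%. AP-1 letters were at 13.4% in EC-K4KO regions and 7.23% in WT Cre regions. The WT Cre share rested on both WT Cre libraries: it was 6.62% without replicate 1 and 7.32% without replicate 2, where regions of a single library enter. In 4 bands of GC content the KLF share was 14.3% to 16.3% in WT Cre regions and 1.82% to 4.72% in EC-K4KO regions.

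**Figure D3:**
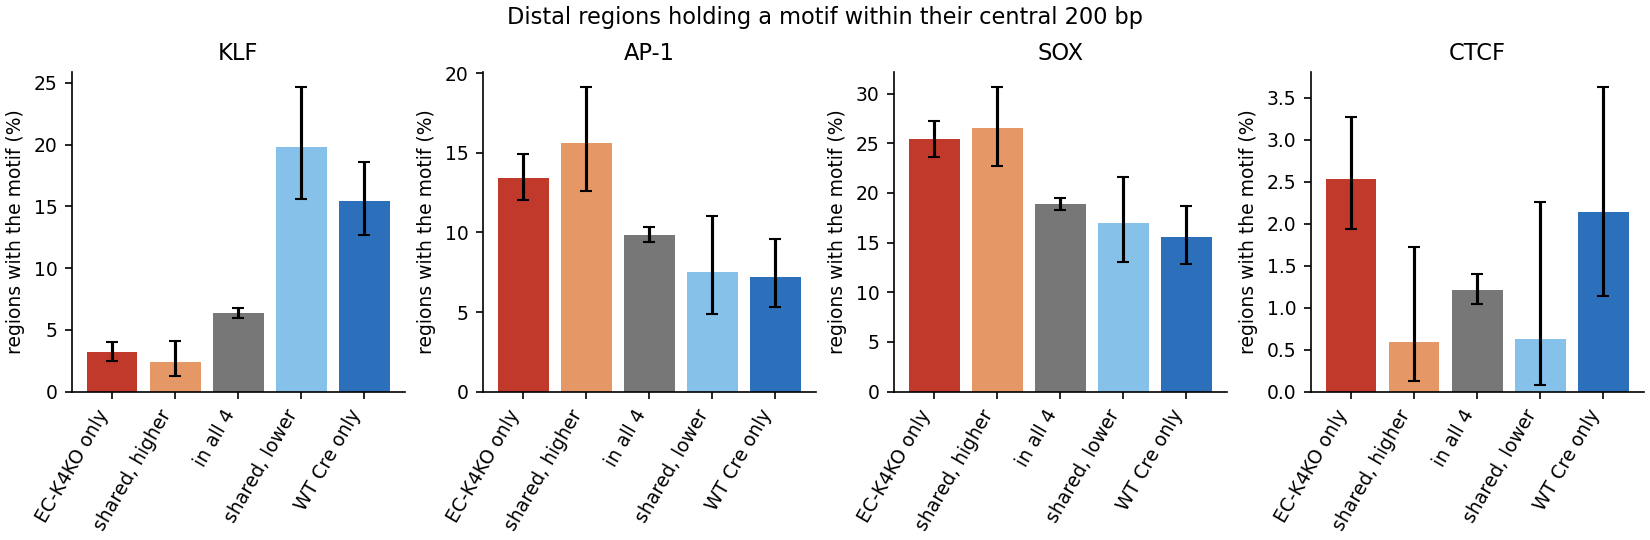
Share of distal regions (percent, vertical axis) whose central 200 bp hold each motif, by set of regions (genotype-restricted, in all 4 lists, and shared with lower or higher fold), with exact 95% intervals that cover counting error only. KLF letters are at 3.19% in EC-K4KO regions, 6.36% in regions of all 4 lists and 15.4% in WT Cre regions, and AP-1 letters run the other way.

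Shared regions gave the same order with the measured fold. KLF letters lay in 63 of 318 distal regions of lower fold in EC-K4KO (19.8%, 15.6% to 24.6%) and in 12 of 505 of higher fold (2.38%, 1.23% to 4.11%). Across bins of the log2 difference, the share went from 27.9% of 43 regions below −0.75 to 18.4%, 11.03%, 7.06%, 5.21%, 3.59% and 2.83%, and to 0 of 55 regions above 0.75, with an exact 95% interval up to 6.49%. Over these bins the AP-1 share went from 3 of 43 to 11 of 55 regions. The GC box letters CCGCCC were in 3 of 43 regions of the lowest bin and 4 of 55 of the highest. In the bins between, from low to high, their share was 17.7%, 20.7%, 19.9%, 15.7%, 10.9% and 6.32%. In the 1039 distal shared regions with KLF letters the median log2 difference was −0.09, against 0.02 in the 14946 without.

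**Figure D4:**
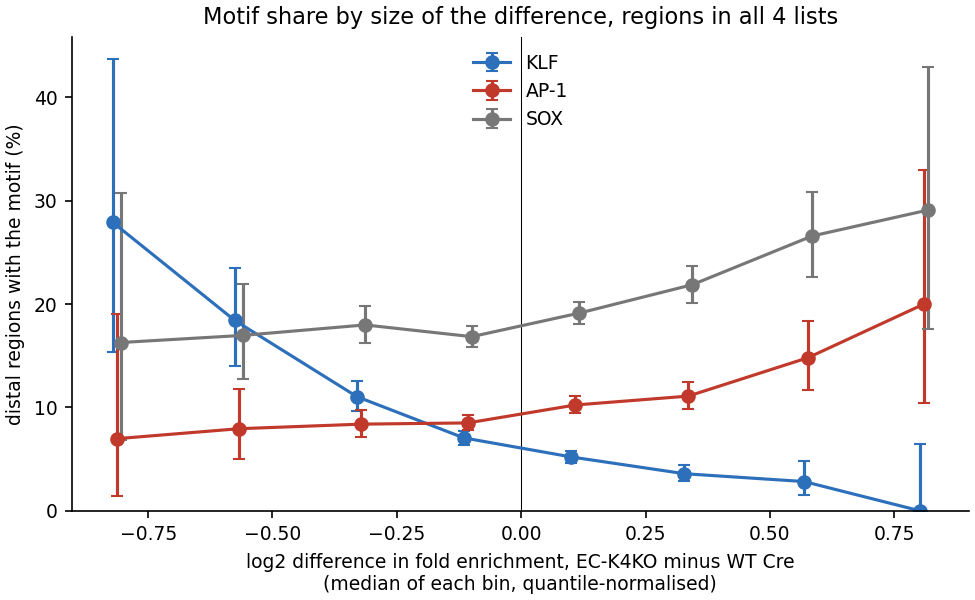
Share of distal shared regions holding each motif (percent, vertical axis) against the log2 difference in fold, EC-K4KO minus WT Cre (horizontal axis, in bins), with exact 95% intervals for counting error. KLF letters go from 27.9% in the lowest bin to 0 of 55 regions in the highest.

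The letters lay towards the middle of the WT Cre regions. In the 100-bp bins on either side of the middle, 7.39% and 9.36% of WT Cre regions held them, against 3.28% and 2.13% in the outermost bins, 400 to 500 bp away. In EC-K4KO regions the central bins were at 1.58% and 1.71% and the outermost bins at 2.45%.

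**Figure D5:**
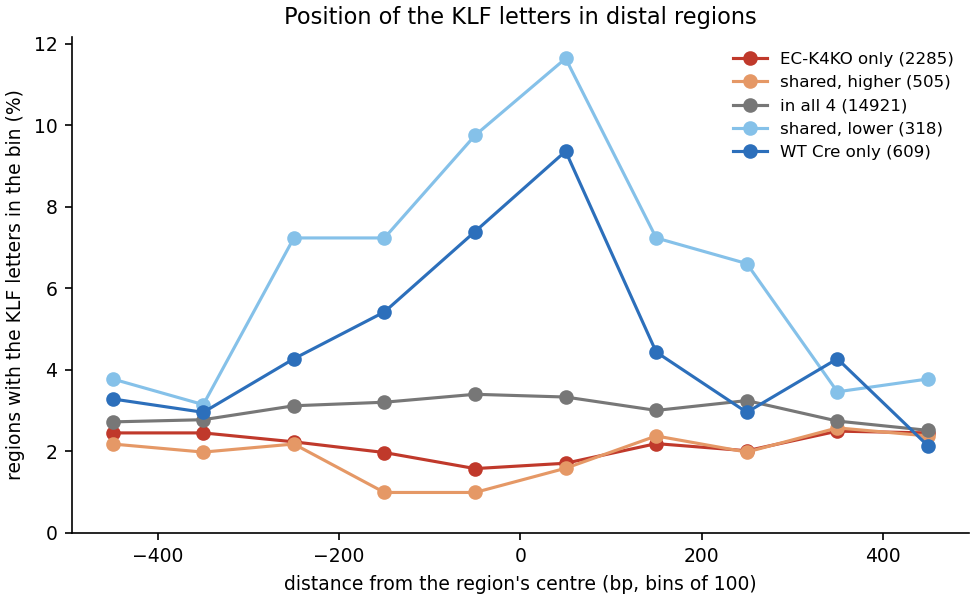
Share of distal regions (percent, vertical axis) with the KLF letters in 100-bp bins around the middle of the region (horizontal axis, bp). WT Cre regions peak at 7.39% and 9.36% beside the middle, and EC-K4KO regions are lowest there, at 1.58% and 1.71%.

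The young libraries, 3 of EC-K4KO and 2 of WT Cre, did not choose these regions. The 6157 strongest peaks of each young list were taken, which is the whole list of young WT Cre replicate 1. Of the 2191 strict EC-K4KO regions, 2, 0 and 0 had a peak in young EC-K4KO and 2 and 1 in young WT Cre. The shares were 0.0304 ± 0.0527% and 0.0685 ± 0.0323% (mean ± SD, exact permutation p = 0.6). Strict regions ranked low in the old lists, so the strongest young peaks could hardly reach them, and no conclusion is drawn from these shares. At the same length, a young peak lay in 0.119 ± 0.206% of the strict WT Cre regions in young EC-K4KO and 1.25 ± 0.252% in young WT Cre. The exact permutation p was 0.1, the smallest 3 against 2 libraries allow. The counts were 4 and 3 of 281 regions in young WT Cre and 1, 0 and 0 in young EC-K4KO. Of those in young WT Cre, 1 and 3 lay in the interferon cluster on chromosome 4, where the assignment of reads between related genes was not tested. This length is the whole list of young WT Cre replicate 1 but only the strongest part of the longer young EC-K4KO lists. Weak regions are thus reached more easily in young WT Cre, and no conclusion is drawn from the WT Cre set either. Regions in all 4 old lists had a young peak in 27.1% in young EC-K4KO and 25.7% in young WT Cre (exact permutation p = 0.1). In whole lists, which are longer in young EC-K4KO, young EC-K4KO was higher at both sets, at 9.63% against 0.183% and 8.19% against 1.78% (exact permutation p = 0.2 each). Folds at shared regions were compared after the data were seen. Of the regions of lower fold in old EC-K4KO, 63 had a peak in all 9 lists of the series. There the mean normalised log2 fold in each young library was taken relative to its mean over all 4872 regions in the 9 lists. It was −0.25, −0.34 and −0.35 in EC-K4KO and −0.13 and −0.15 in WT Cre, a difference of −0.18 (exact permutation p = 0.1). Of the 63 regions 47 were lower in young EC-K4KO, against 2511 of all 4872 regions in the 9 lists. Only 7 of the old higher regions could be compared, with a difference of 0.32 (exact permutation p = 0.2). Of all 4872 regions, 115 were distal with KLF letters, and there young EC-K4KO differed from WT Cre by −0.061 relative to distal regions without them (exact permutation p = 0.1). The KLF share of distal young peaks was 6.06%, 5.73% and 5.47% in EC-K4KO and 6.16% and 6.45% in WT Cre, taking the 6157 strongest peaks of each list (exact permutation p = 0.2). Of the other motifs that separated the old genotypes, ETS (difference 2.84 percentage points) and CTCF (0.42) kept their direction there. SOX (−1.16), FOX (−0.61) and IRF (−0.21) turned, and AP-1, glucocorticoid receptor, NF-κB and TCF/LEF shares overlapped between genotypes. The mean GC content was 61.1% in young EC-K4KO and 57.5% in young WT Cre (exact permutation p = 0.1). Its part in the motif shares was not tested.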

How the data were processed

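Omni-ATAC-seq peak lists of 2 old EC-K4KO and 2 old WT Cre libraries were compared, with 5 young libraries as an independent measure. According to the study's methods and the processing notes, the authors trimmed reads with TrimGalore and aligned them to mm10 (GRCm38) with Bowtie2. They removed duplicates and reads of low mapping quality and called broad peaks per library with MACS2. The deposited score is a peak caller score. The deposited fold is a ratio to local background, and the deposited −log10 p and −log10 q were averaged over the broad peak by the authors. Their annotation gives a class, gene and distance to the TSS. Read counts were not analysed here, so the authors' test of differential accessibility on counts (DiffBind with DESeq2) was not run and depth is unknown.

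Peaks that overlapped by 1 bp or more formed a region. List measures and motif shares were tested with two-sided exact permutation tests over 6 arrangements of 4 libraries, and 10 of the 5 young libraries. Fold was fitted with limma 3.58.1 in R 4.3.3 on quantile-normalised log2 values with no pseudocount, with Benjamini-Hochberg adjustment, and tested on simulated data. The other steps used Python 3.11.15, numpy 2.4.6, pandas 2.3.3, scipy 1.17.1, pysam 0.24.0, samtools 1.23.1 and matplotlib 3.10.9. Motif letters were CACACCC (KLF), CCGCCC (GC box), CCGGAA (ETS), TGANTCA (AP-1), ACAAAG (SOX), TGTTTAC (FOX), GGAATG (TEAD) and ATCAAAG (TCF/LEF), and patterns of CTCF, the glucocorticoid receptor, NF-κB, MEF2 and IRF. The text names Klf4, genes of 29 lists, the 12 strict regions and 8 promoter regions per direction with the best mean rank, the 8 genes with the most regions, and the 8 regions with the smallest limma p. Members, lists and thresholds were chosen with earlier results of these data known. Alternatives covered list length, ranking, region overlap, annotation, normalisation, pairing and each library left out. Of the sequence windows read, the text shows 5, and 1 result is not reported here.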

Additional observations from a re-analysis of the deposited data

Results flagged for a closer look

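The interferon-zeta cluster (chr4:88757506-88806158) was noted because the genotype difference in whole lists went in opposite directions at the 2 ages. Old EC-K4KO libraries had 2 and 1 peaks there against 8 and 7 in old WT Cre, a difference of −6.0. Young EC-K4KO libraries had 4, 5 and 7 against 1 and 3 in young WT Cre, a difference of 3.33. The old difference minus the young difference was −9.33. No test is given, since the span was chosen on the old libraries' own peaks. With the strongest peaks of each library at the length of the shortest list of the series the differences were −1.5 in old and −0.667 in young, in the same direction, and the value was −0.833. The young lists were of unequal length, at 23848, 25309 and 27992 peaks in EC-K4KO against 6157 and 9598 in WT Cre, and the part of list length in the whole-list value was not tested.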

How the results depend on the processing

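Of 187 alternatives over 37 results, 142 kept their direction (or, for counts and untested values, a size near the main one), 35 moved and 10 turned, and 41 were chosen after seeing the data. Without WT Cre replicate 2 the difference in peak number turned to −1840.5, that in genes with a promoter peak to 13 and that in promoter share to 0.0568 percentage points. The promoter gene difference also turned in whole lists (263.5) and at a −log10 q of at least 2 (364.5). The promoter share turned within 1000 bp of a TSS (0.134), the intergenic share (2.45) and chromosome X share (−0.059) at that q, the Jaccard difference as an overlap coefficient (−0.0114) and the MEF2 share over whole peaks (0.818). The cause was not tested. Sizes changed also where the direction held: at a −log10 q of at least 2 the width difference was 2.75 bp, covered length 5.34 Mb, promoter share −6.86 and peak number 9604.

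EC-K4KO regions numbered 4408 in whole lists, 316 among the 10000 strongest and 4914 at a −log10 q of at least 2, and 3986 to 4620 with each library left out. WT Cre regions numbered 391, 371 and 185, with 281 in the strict set, and 1114 to 6078. With each library left out, promoter genes of EC-K4KO were 434 to 571 and of WT Cre 434 to 603, and WT Cre promoter genes within 1000 bp were 109. Without normalisation, 4289 regions were higher and 26 lower. The KLF share of lower regions was 13.9% at a difference of 0.3 or more, 15.1% with −log10 p, 36.0% without normalisation and 15.2% to 19.3% with each library left out. That of EC-K4KO regions was 1.55% among the 10000 strongest, 7.22% over the whole region and 3.31% to 3.84% with each library left out, and that of WT Cre regions 27.3% over the whole region and 6.62% to 14.04% (7.32% without WT Cre replicate 2). With each library left out, covered length differed by 1.89 to 2.16 Mb, width by 61.0 to 70.0 bp, intron share by 1.61 to 2.15, intergenic share by −3.003 to −1.53, X share by 0.292 to 0.313, promoter share by −0.346 to 0.0568, promoter genes by −105.0 to 13 and peak number by −1840.5 to 9497.5.

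Same-numbered libraries share only a number (correlation of deviations 0.0389). With the replicate number as a block, limma called 0 regions higher and 0 lower (smallest adjusted p 0.0756), and the differences kept their values (peak number 3828.5, covered length 2.02, width 65.5, promoter genes −46.0, KLF share −1.25).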
